A study of Mus musculus with 16 samples.

Results

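The 7 genes described here are Ppargc1a, Ppargc1b and Pprc1, which encode the PGC-1 family of transcriptional coactivators, and 4 of their partners in mitochondrial biogenesis, Esrra, Nrf1, Gabpa and Tfam. They were chosen by name, and a crosslink cluster was counted for a gene when its midpoint lay inside the gene bounds of the GENCODE M21 annotation of mm10, on the same strand. The 7 genes held 893 of 1331383 clusters, out of 13182 genes with at least 1 cluster. The clusters came from seCLIP, where RNA is fixed to bound protein by ultraviolet light, the protein is immunoprecipitated and the attached RNA fragments are sequenced. Here the protein was PGC-1α, in primary hepatocytes of C57BL/6J mice, crosslinked at 254 nm and 400 mJ/cm2. Overnight culture in starvation medium is given for all samples. Glucagon cells were then exposed to the hormone at 200 nM for 3 h, and control cells are labelled untreated. Each treatment was sequenced as an upper and a lower gel band with 2 replicates, which gives 4 groups of 2 immunoprecipitated libraries; whether replicates came from separate mice is not stated, so p-values measure the spread between libraries only.

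PGC-1α, PGC-1β and PRC, the products of Ppargc1a, Ppargc1b and Pprc1, do not bind DNA themselves. They are recruited by transcription factors such as ERRα, NRF1 and the GABP complex, whose target genes include those of oxidative phosphorylation and Tfam, the factor that packages and transcribes mitochondrial DNA. PGC-1α also carries an RNA recognition motif. In liver, fasting and glucagon are known to raise Ppargc1a transcription through cyclic AMP and CREB, and PGC-1α then acts on gluconeogenic genes.

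The number of clusters was 26279 to 207718 in the 4 glucagon libraries and 132622 to 260814 in the 4 control libraries. Glucagon lower band replicate 1, with 26279, was the smallest and stood apart, and a gene with no cluster there may lie anywhere up to 11.4 clusters per 100000, the level that 3 clusters would give. The files hold no read counts, so the sequencing depth is unknown. Every cluster carries the authors' log2 fold and −log10 p; the files have no header, and these were read as immunoprecipitate against input. A cluster with both values at 3 or more is called enriched below, and 35942 clusters were. All 10 of the hepatocyte markers examined held clusters, whereas Cd68 was the 1 of 6 Kupffer cell markers with any, and 1 of 6 endothelial, 1 of 6 stellate and 2 of 6 cholangiocyte markers held any. The hepatocyte markers summed to 337 to 1256 clusters per 100000 in the glucagon libraries and 172 to 271 in the control libraries, so the groups did not overlap. Without Cps1 and Tat, which were called higher with glucagon, the other 8 markers summed to 161 to 670 in the glucagon libraries and 134 to 213 in the control libraries, and the groups overlapped. The part of these markers in the results for the 7 genes was not tested. The number of clusters in a gene depends on how much of its RNA the cells hold, on how many cells hold it and on crosslinking, and these cannot be told apart here.

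Ppargc1a, the gene of the immunoprecipitated protein, held clusters almost only in the glucagon libraries, 137 of its 139. In the upper band it held 17 and 63 clusters in the glucagon libraries, against 1 and 1 in the control libraries. In the lower band it held 0 and 57 clusters in the glucagon libraries, against 0 and 0 in the control libraries. The empty glucagon library is the small one, while 0 clusters in the control lower band libraries allow up to 2.26 and 1.68 per 100000. Scaled to the library, Ppargc1a reached 23.9 ± 9.13 clusters per 100000 in the glucagon upper band and 15.2 ± 21.4 in the glucagon lower band, against 0.400 ± 0.0235 in the control upper band and 0 in the control lower band (SD, n = 2 each). The 2 glucagon groups did not differ beyond their spread.

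Over the upper band, 80 glucagon clusters stood against 2 control clusters, a ratio of 65.6 per library cluster with an exact 95% interval of 17.6 to 551 that covers counting error only. Both glucagon upper band libraries lay above both control libraries, as 27.6% of the 6234 tested genes did in that band. The difference was 3.29 ± 1.00 (SE) on the scale of log2(clusters per 100000 + 1), averaged over the bands. It did not pass the threshold of 0.05 in limma, with an adjusted p of 0.216 over all 6234 genes and an unadjusted p of 0.0118. Within bands it was 4.10 ± 1.41 in the upper band (limma adjusted p = 0.665) and 2.48 ± 1.41 in the lower band (adjusted p = 0.560), and the difference between the bands was 1.62 ± 1.99 (adjusted p = 1.00). The lower band difference rests on 1 library: it was 0 without glucagon lower band replicate 2 and 4.97 without replicate 1 (limma adjusted p = 0.00614). Over both bands the difference was 4.53 without glucagon lower band replicate 1 (limma adjusted p = 0.000293) and 2.05 without replicate 2 (adjusted p = 0.00448). Each of these fits leaves 1 library for the glucagon lower band, which is assumed to vary like the other groups. With limma's array quality weights, chosen after the small library was seen, it was 3.29 with an adjusted p of 0.0342; those weights were the same for both libraries of a group, 0.125 for the glucagon lower band, and did not set the small library apart from its replicate.

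**Figure D1:**
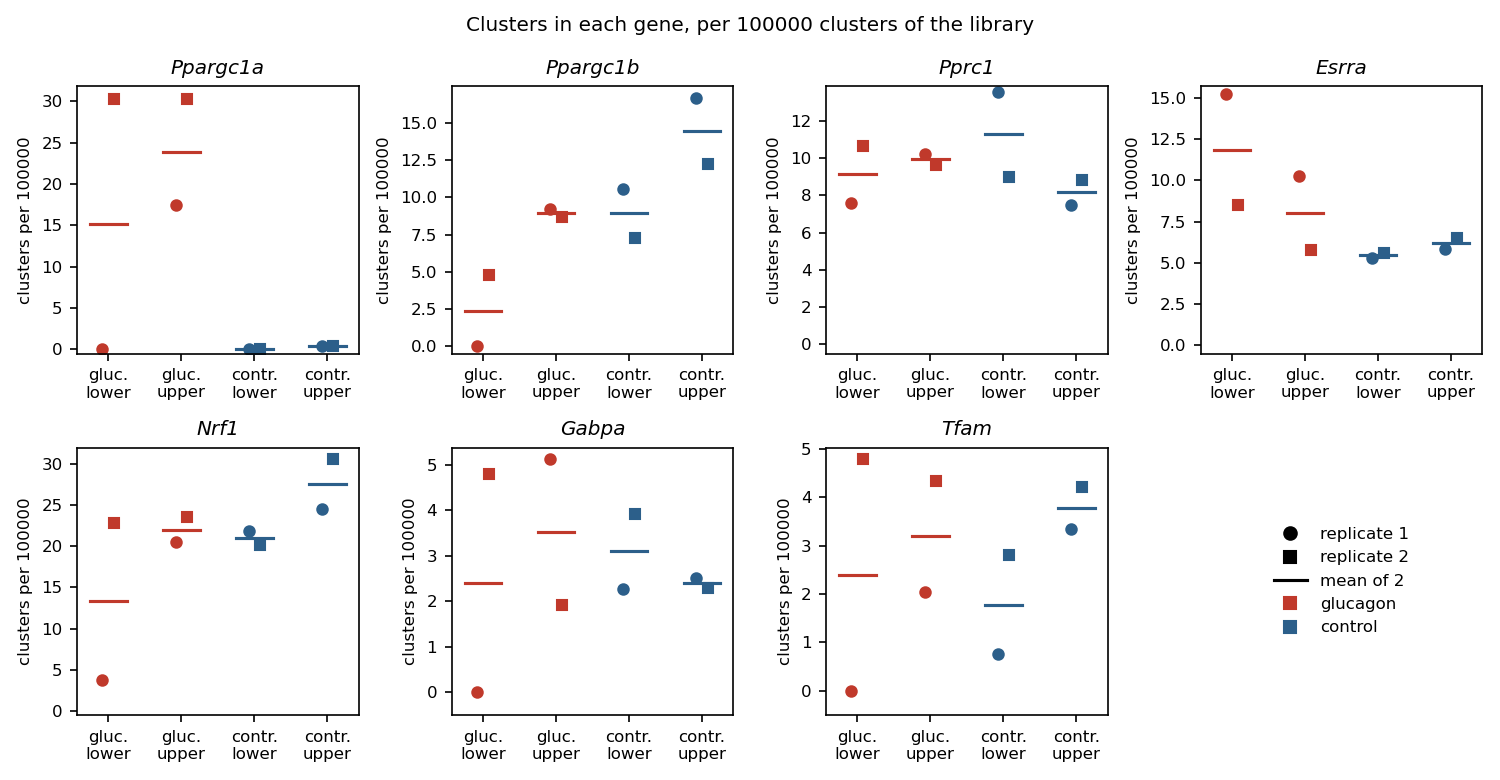
Clusters in each of the 7 genes per 100000 clusters of the library (y axis), for glucagon lower and upper band and control lower and upper band (x axis); circles are replicate 1, squares replicate 2 and lines the mean of 2. Ppargc1a reaches 30.3 in 2 glucagon libraries and stays at or below 0.417 in the 4 control libraries. All genes except Ppargc1b overlap between treatments in at least 1 band. Ppargc1a does so in the lower band, where glucagon lower band replicate 1 is at 0 like the control libraries.

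None of the 139 Ppargc1a clusters was enriched, which allows a share of up to 2.62% (exact 95% interval). Along the gene, on the minus strand of chromosome 5, they lay from 127 nt to 99613 nt past the start of the main coding transcript. Main here means the protein-coding transcript with the most 5′ start in the basic set of the annotation, whichever one the cells express. No cluster lay in the 13804 nt of the gene upstream of that start, where alternative first exons are annotated. By stretches of 20 kb from the start, the counts were 54, 30, 22, 13 and 20, so they were most dense at the 5′ end and more frequent again in the last stretch, which holds the 3′ UTR. Introns held 112 clusters, the 3′ UTR 15, coding exons 11 and the 5′ UTR 1. The clusters fell into 120 separate sites, 119 of which were seen in glucagon libraries only and 106 in a single library.

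The 1 site shared with control libraries was at chr5:51548152-51548310, in intron 2, between 202 and 360 nt past exon 2. It was found in 5 libraries; the 2 control clusters did not overlap each other and were joined by a wider glucagon cluster. Its log2 fold and −log10 p were 1.99 and 3.80 in glucagon upper band replicate 2, 3.08 and 2.85 in glucagon upper band replicate 1, and 3.65 and 2.92 in glucagon lower band replicate 2. In the control upper band they were 1.49 and 0.204 in replicate 1 and 1.73 and 0.413 in replicate 2. Each glucagon library thus passed 1 of the thresholds and missed the other, and both control libraries missed both. Many Ppargc1a clusters carried values shared with other clusters: 14 in glucagon lower band replicate 2 had the same log2 fold of 1.43 and −log10 p of 0.203, so their fold does not rank them. Another 5 clusters also lay in unnamed genes on the same strand, and their source cannot be told apart.

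A coding stretch shows what the glucagon clusters covered in the Ppargc1a messenger itself. Exon 3 held a cluster in 2 glucagon libraries, with log2 folds of 0.95 in upper band replicate 2 and −0.35 in lower band replicate 2, below the gene's median of 1.18 in both. Its sequence on the transcript strand (minus) is that of chr5:51498034-51498125 in mm10, from the GENCODE M21 transcript, with the bases covered in both libraries in capitals.
Ppargc1a exon 3: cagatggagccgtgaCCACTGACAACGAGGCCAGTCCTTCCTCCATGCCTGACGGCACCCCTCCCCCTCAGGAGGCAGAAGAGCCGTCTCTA

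**Figure D2:**
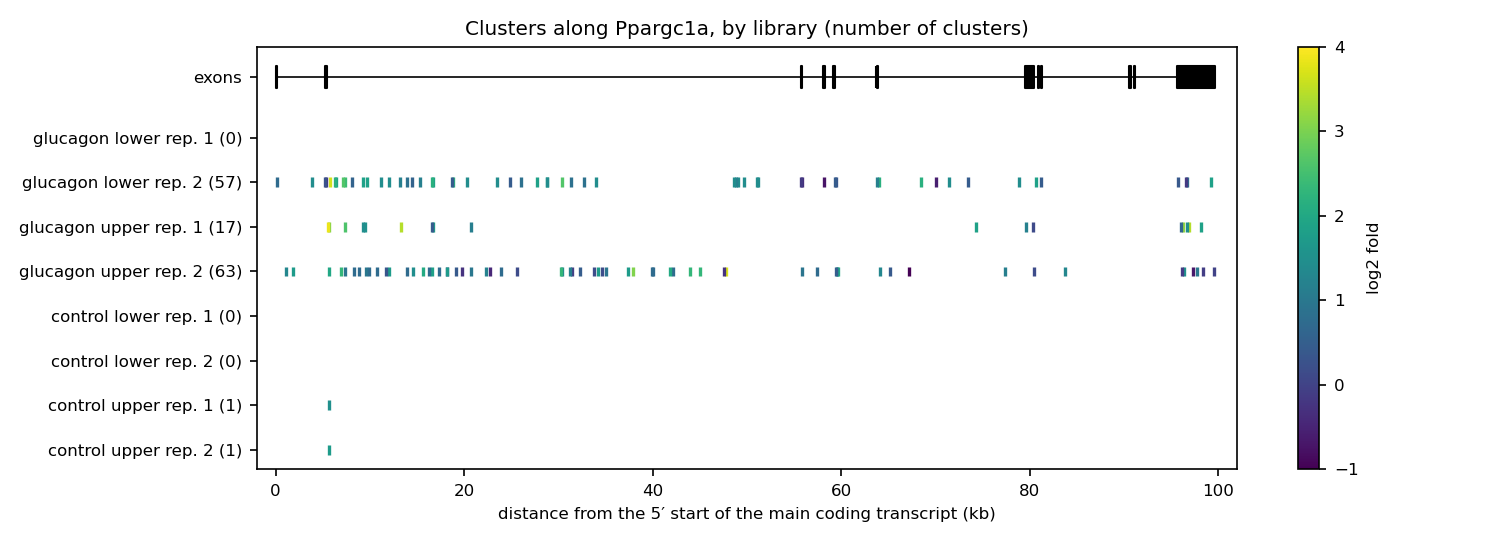
Position of every Ppargc1a cluster (ticks) by distance in kb from the 5′ start of the main coding transcript (x axis), 1 row per library with its number of clusters, coloured by log2 fold, with exons as black boxes on top. Clusters run along the main coding transcript in glucagon lower band replicate 2 and glucagon upper band replicate 2, and the 2 control clusters lie close together, 284 and 223 nt past exon 2.

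Ppargc1b, the gene of PGC-1β, showed the opposite order. It held 9 and 18 clusters in upper band and 0 and 9 in lower band libraries of glucagon cells, against 40 and 32 in upper band and 14 and 13 in lower band libraries of control cells. Per 100000 the upper band averaged 8.94 ± 0.391 with glucagon and 14.5 ± 3.11 in control cells, and the lower band 2.39 ± 3.38 with glucagon and 8.92 ± 2.31 in control cells (SD, n = 2 each). Both glucagon libraries lay below both control libraries in each band, which 12.2% of all tested genes did (26.2% in the upper and 22.5% in the lower band alone). None of the 7 genes lay above in each band, as 6.88% of tested genes did. The glucagon upper band and the control lower band had nearly the same mean and did not differ beyond their spread. The log2 difference was −1.32 ± 0.56 and did not pass in limma (adjusted p = 0.429; unadjusted p = 0.0490), and the median over all tested genes was −0.24. Without glucagon lower band replicate 1, where its 0 clusters allow up to 11.4 per 100000, the treatment difference was −0.69. Without replicate 2, which leaves the small library alone for its group, it was −1.96. Upper band libraries of Ppargc1b exceeded lower band libraries by 1.35 ± 0.56 on the log2 scale (limma adjusted p = 0.747). The band difference was 0.71 without glucagon lower band replicate 1 and 1.98 without replicate 2. Ppargc1b was the 1 member whose upper band libraries lay above the lower band libraries in each treatment, as 3.21% of tested genes did. No member had them below in each, as 2.52% did.

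All 135 Ppargc1b clusters were intronic, 134 of them in the first intron of 76981 nt. The gene held 3 enriched peaks, all in control upper band libraries. They were centred 814, 1449 and 1807 nt past the start, with log2 folds of 3.37, 3.90 and 3.03, and none was in a reproducible list.

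Pprc1, the gene of PRC, the family member that responds to serum and growth signals, had the smallest treatment difference of the 7 genes. It held 10 and 20 clusters in upper band and 2 and 20 in lower band libraries of glucagon cells, against 18 and 23 in upper band and 18 and 16 in lower band libraries of control cells. Per 100000 the upper band libraries were at 10.2 and 9.63 with glucagon and at 7.50 and 8.82 in control cells, without overlap, as in 27.6% of tested genes, while those of the lower band overlapped. The log2 difference was −0.005, with a 95% interval of −0.72 to 0.71. Of its 127 clusters, 17 were enriched. These were 1 and 3 in upper band and 0 and 0 in lower band libraries of glucagon cells, against 2 and 4 in upper band and 3 and 4 in lower band libraries of control cells. The means were 1.00 ± 1.41 with glucagon and 3.25 ± 0.957 in control cells, with each SD taken over 2 bands of 2 replicates. An exact two-sided permutation within bands gave a p of 0.111, in a design whose smallest possible p is 0.0556.

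The Pprc1 enriched peaks formed 7 sites, all in the first intron, and 15 of 17 were centred within 2000 nt of the start. The site at chr19:46057181-46057362 was enriched in 5 libraries, 2 glucagon and 3 control. It held the peak with the highest fold of the gene, in glucagon upper band replicate 2, with a log2 fold of 4.56 and a −log10 p of 19.2. The site at chr19:46056843-46057049 was also enriched in 5 libraries, 1 glucagon and 4 control. The next folds were 4.52 in control lower band replicate 2 and 4.28 in control lower band replicate 1, between these 2 sites and inside the second. The authors' reproducible lists, 1 per treatment and band, held 4 rows in Pprc1. Those were 1 in the glucagon upper band list, with a log2 fold of 4.11, and 3 in control lists, with 3.38 and 3.55 in the upper band list and 3.62 in the lower band list.

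The sequence of this stretch is shown because enriched clusters of up to 5 libraries covered the same base of it. It is chr19:46056894-46057160 on the plus strand of mm10, intronic in the main transcript and a noncoding exon of another GENCODE M21 transcript of the gene, from which it was read. Capitals mark the 134 bases that enriched clusters of at least 3 libraries covered.
Pprc1 first intron: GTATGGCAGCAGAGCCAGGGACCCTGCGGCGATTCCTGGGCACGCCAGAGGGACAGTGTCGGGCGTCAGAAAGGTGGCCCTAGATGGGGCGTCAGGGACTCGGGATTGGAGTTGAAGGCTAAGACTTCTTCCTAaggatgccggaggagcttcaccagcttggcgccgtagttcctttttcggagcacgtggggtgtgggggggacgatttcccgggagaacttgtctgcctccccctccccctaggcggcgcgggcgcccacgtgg

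Esrra, which encodes the nuclear receptor ERRα that recruits PGC-1 proteins to oxidative genes, had the most clusters per length of the 7 genes. It held 8.30 clusters per kb over the 8 libraries, followed by Pprc1 with 4.53, Tfam with 3.51, Nrf1 with 3.01, Gabpa with 1.39, Ppargc1b with 1.32 and Ppargc1a with 1.22. This order pools the treatments: in the glucagon libraries alone Ppargc1a held 1.21 clusters per kb, above Nrf1 with 1.07, Gabpa with 0.624 and Ppargc1b with 0.352, whereas in the control libraries it held 0.0176. Esrra held 10 and 12 clusters in upper band and 4 and 16 in lower band libraries of glucagon cells, against 14 and 17 in upper band and 7 and 10 in lower band libraries of control cells. Per 100000 the lower band libraries were at 15.2 and 8.51 with glucagon and at 5.28 and 5.61 in control cells, without overlap, as in 9.98% of tested genes. The log2 difference over both bands was 0.62 ± 0.35 (limma adjusted p = 0.510). It was 0.81 without glucagon lower band replicate 2, which leaves the small library alone for its group.

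Esrra also had the most enriched peaks, 18 of 90 clusters, in 7 of the 8 libraries. They numbered 3 and 4 in upper band and 1 and 2 in lower band libraries of glucagon cells, against 3 and 3 in upper band and 2 and 0 in lower band libraries of control cells. The means were 2.50 ± 1.29 with glucagon and 2.00 ± 1.41 in control cells, with each SD taken over 2 bands of 2 replicates. The exact permutation within bands gave a p of 0.667. All 18 lay in the first intron, 299 to 1322 nt past the start, at 7 sites. At chr19:6920993-6921206, 7 libraries had a cluster and 5 an enriched one, 2 glucagon and 3 control. The highest fold was 5.05, with a −log10 p of 4.10, in glucagon lower band replicate 1, the small library. The best supported was in glucagon upper band replicate 2, 312 nt past the start, with a log2 fold of 4.28 and a −log10 p of 15.3.

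The reproducible lists held 5 rows in Esrra. The glucagon upper band list had 2, with log2 folds of 3.86 and 3.38 at 312 and 464 nt past the start. The control upper band list had 3, with 3.54, 3.49 and 3.77 at 646, 304 and 924 nt. The peaks near 304 and 312 nt were one place, enriched in 2 glucagon libraries and 1 control library. A short stretch of the intron is an exon in another GENCODE M21 transcript, on the minus strand at chr19:6921015-6921035. It is shown in capitals throughout because an enriched cluster covered all of it in glucagon upper band replicate 2 and another did in control upper band replicate 2.
Esrra first intron: GGAGGGGGTGGCGTGTCAGAG

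Nrf1, the gene of nuclear respiratory factor 1, held the most clusters, 317, in a gene of 105471 nt. It held 20 and 49 clusters in upper band and 1 and 43 in lower band libraries of glucagon cells, against 59 and 80 in upper band and 29 and 36 in lower band libraries of control cells. Per 100000 the upper band libraries were at 20.5 and 23.6 with glucagon and at 24.6 and 30.7 in control cells, without overlap, as 26.2% of tested genes were in that direction. The log2 difference was −0.67 ± 0.49 (limma adjusted p = 0.535), and −0.10 without glucagon lower band replicate 1, where Nrf1 had 1 cluster. It was −1.25 without replicate 2, which leaves the small library alone for its group. Over the 8 libraries, the tested genes with cluster levels most like those of Nrf1 were Grb2, Myo1d and Git2, with Pearson r of 0.995, 0.994 and 0.993; all these points share library size, and Nrf1 was the only member with 20 or more clusters on average.

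The 9 enriched peaks of Nrf1 were 3 in glucagon upper band replicate 2, against 1 in control lower band replicate 2 and 1 and 4 in the control upper band. A total of 8 lay at 2 adjoining sites, chr6:30048520-30048785 and chr6:30048786-30049161, each with clusters in 7 libraries. The highest folds were 4.72 in glucagon upper band replicate 2, 591 nt past the start, and 4.68 and 4.25 in control upper band replicate 2, at 829 and 892 nt. The ninth was centred 18295 nt past the start, still in the first intron. The 1 row of Nrf1 in the lists was in the control upper band list, with a log2 fold of 3.49 at 943 nt.

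Gabpa, which encodes the DNA-binding subunit of the GABP complex, held 40 clusters and no enriched peak, which allows a share of up to 8.81%. It held 5 and 4 clusters in upper band and 0 and 9 in lower band libraries of glucagon cells, against 6 and 6 in upper band and 3 and 7 in lower band libraries of control cells. The log2 difference was −0.21 ± 0.65 (limma adjusted p = 0.861). In the site found in the most libraries, 6, the clusters were centred 828 to 843 nt past the start.

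Tfam, a target gene of these factors, held 45 clusters and no enriched peak. Its enriched share may be up to 7.87%, which also cannot be told from that of all clusters. It held 2 and 9 clusters in upper band and 0 and 9 in lower band libraries of glucagon cells, against 8 and 11 in upper band and 1 and 5 in lower band libraries of control cells. The log2 difference was −0.17 ± 0.66 (limma adjusted p = 0.890). Its clusters were centred mostly in exons, with 22 in coding sequence, 13 in the 3′ UTR and 8 in introns. The median log2 fold of Tfam, 0.61, was the lowest of the 7 genes. In Gabpa 13 of 40 were intronic, against 282 of 317 in Nrf1.

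**Figure D3:**
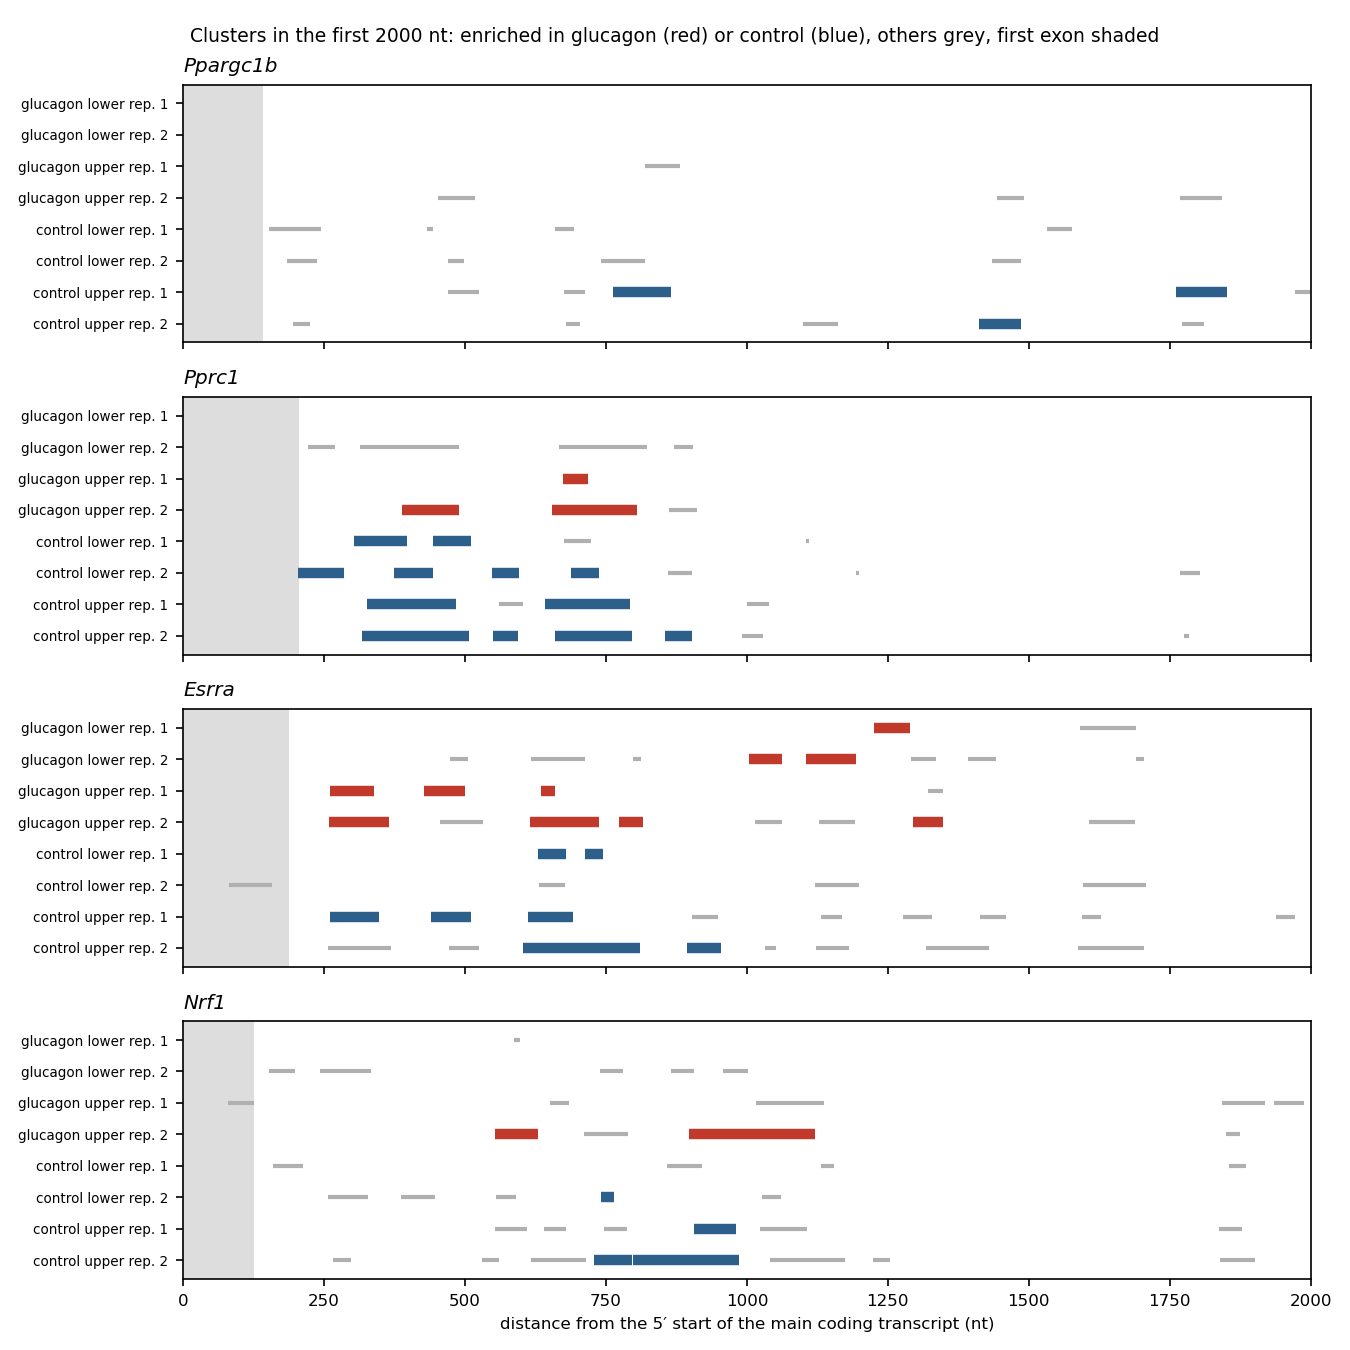
Clusters in the first 2000 nt of the 4 genes with enriched peaks, by distance in nt from the 5′ start (x axis), 1 row per library, with enriched peaks as thick red (glucagon) or blue (control) bars, other clusters as thin grey bars and the first exon shaded. Of the 47 enriched peaks, 44 are centred in this window, and those of Ppargc1b are in control upper band libraries only.

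The 47 enriched peaks of the 4 genes shared their place. All 47 lay in the first intron of the main coding transcript, against 64.1% of enriched peaks and 29.5% of all clusters in coding genes. Within 2000 nt of the start lay 44 of 47, against 34.7% of enriched peaks and 10.7% of clusters in coding genes. These shares are descriptions, since peaks of 1 gene share their RNA and the first introns of the 4 genes differ in length. Pprc1 accounts for the 12 that also fall in exons of alternative transcripts, 5 in a 5′ UTR and 7 in a noncoding exon.

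The clusters of the 7 genes as a whole were 77.7% intronic, against 68.7% of all clusters in the series. Counted by gene, intronic shares ran from 17.8% in Tfam to 100% in Ppargc1b. Clusters just inside and just outside the thresholds had close values. The lowest log2 fold of an enriched Esrra peak was 3.01, and the highest below the threshold, among 11 Esrra clusters that passed on p alone, was 2.997. In Ppargc1b, 16 clusters passed on fold alone, with −log10 p up to 2.99.

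**Figure D4:**
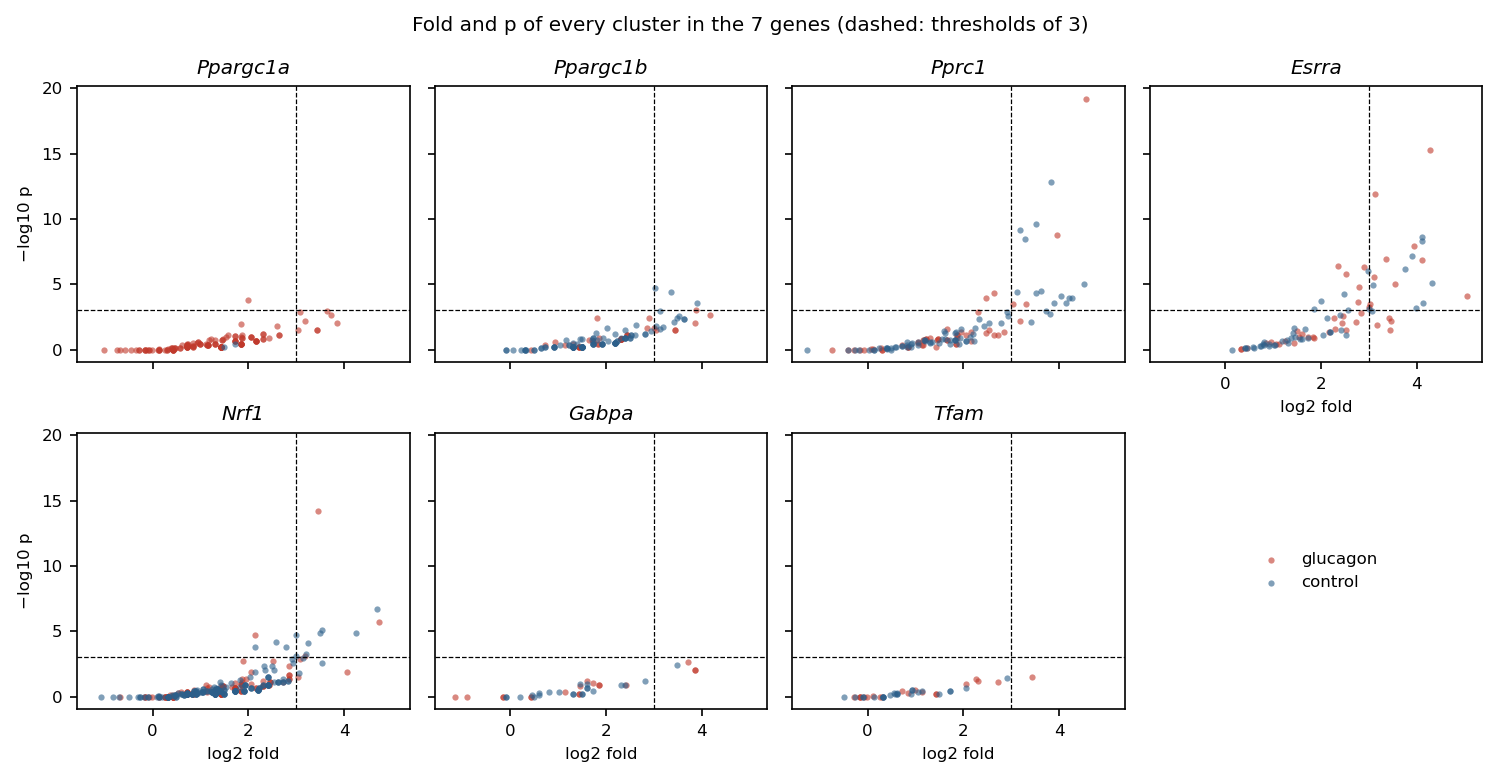
Log2 fold (x axis) and −log10 p (y axis) of every cluster in the 7 genes, glucagon in red and control in blue, with dashed lines at the thresholds of 3. Pprc1, Esrra and Nrf1 reach −log10 p of 19.2, 15.3 and 14.2, whereas Ppargc1a, Gabpa and Tfam have no cluster past both lines.

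None of the 7 genes passed the treatment test (limma). At an unadjusted p under 0.05 were 2 of the 7, beside 724 of all 6234 tested genes. The test called 93 of the 6234, 43 higher (0.69%) and 50 lower (0.802%) with glucagon. With the replicate number as a block the count was 161, and the adjusted p of Ppargc1a was 0.120. In the lower band 4 genes were higher (0.0642%) and 3 lower (0.0481%), and in the upper band 3 were higher (0.0481%) and 1 lower (0.016%). Between bands limma called 0 genes (82 at an unadjusted p under 0.05), and for the difference between bands in the response 0 (14 at an unadjusted p under 0.05).

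Genes that act with the PGC-1 family were examined in 4 lists, and limma called 0 genes in each. At an unadjusted p under 0.05 were 2, 2, 1 and 0 of them, in the order below, beside 724 of all 6234 tested genes. Of the regulators and modifying enzymes, 26 of 31 were tested, with a median log2 difference of −0.44, and 8 had rows in the reproducible lists. Mef2d, a transcription factor of the MEF2 family, had 19 rows and a log2 difference of 0.80 (adjusted p = 0.500). Sik1, a kinase induced by cyclic AMP that restrains CREB coactivators, had 14 rows and held 20, 32, 18 and 24 clusters in the glucagon libraries, against 8, 6, 13 and 10 in the control libraries. Both glucagon libraries of Sik1 lay above both control libraries in each band, as 6.88% of tested genes did, with a log2 difference of 2.12 ± 0.50 (limma adjusted p = 0.111; unadjusted p = 0.00335). Ppp3ca, a calcineurin subunit, had 11 rows and −1.51 (adjusted p = 0.267).

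Of the transcription factors, 20 of 25 were tested, with a median of −0.13, and 9 had rows. Rxra, the partner of many nuclear receptors, had 54 rows, Rora 32, Nfe2l2 28, and Srebf1 and Myc 10 each, against 5 for Esrra, the member with the most. Of the coactivators and repressors, 18 of 22 were tested, with a median of −0.35, and 7 had rows, among them the coactivator Ncoa2 with 22. Of the machinery of mitochondrial DNA and RNA, 12 of 28 were tested, with a median of −0.36, and 0 had rows. The share of all genes with rows is not given here, so the counts with rows in these lists cannot be read as an excess or a lack. Beside these, 2 of the 10 hepatocyte markers were called higher with glucagon, Cps1 with a log2 difference of 2.58 (limma adjusted p = 0.0225) and Tat, the tyrosine aminotransferase gene, with 2.13 (adjusted p = 0.0333).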

How the data were processed

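The samples are 8 PGC-1α immunoprecipitates and 8 inputs. Each immunoprecipitate has 1 file of clusters, and each treatment and band has 1 reproducible list; the input libraries were not analysed here. The submitters' processing notes name cutadapt, STAR and mm10. The peak caller, its settings and how the lists were made: not given in the sources used here. The deposited files hold a −log10 p (capped at 400) and a log2 fold per cluster, made by the authors. These values were used to describe and rank clusters and to define the enriched peaks, whose numbers were compared by permutation.

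Clusters were assigned to genes by midpoint and strand with GENCODE M21. Counts per gene were scaled per 100000 clusters of the library, and log2(value + 1) was tested with limma 3.58.1 with trend (R 4.3.3), in a group-means model over 8 libraries with 4 residual degrees of freedom, for genes with a mean of at least 5 clusters and Benjamini-Hochberg adjustment over all of them, two-sided. On simulated data it called 61% of changes of 2 and 92% of changes of 3 on the log2 scale. The simulated libraries had the real library sizes but were independent, with the same spread setting for every gene and library. Those rates therefore need not hold for the real libraries. Enriched peaks were compared by exact permutation within bands over 36 assignments. Deviations of same-numbered libraries correlated at 0.15 to 0.545 in all 6 pairs of groups, each above the limit of 0.1 for calling them paired. Replicate 1 had fewer clusters than replicate 2 in every group, so a pairing and library size cannot be told apart here. The model and the permutations above treat the libraries as independent. If same-numbered libraries share cells, their p-values overstate the replication. The fit with the replicate number as a block is an alternative. The 7 genes and the lists were chosen with earlier results of these data known. All 7 genes are named, with the enriched clusters of highest fold (up to 3 each) and every row in a list, examples of the genes of the lists with rows (1 is not reported here), and the 3 genes most correlated with a member of at least 20 clusters on average. Intervals of shares and of the cluster ratio cover counting error only, and those of log2 differences are limma's, from the spread between libraries. Alternatives were another scaling, pseudocount, filter, covered bases, the block, limma's array quality weights and each library left out.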

Additional observations from a re-analysis of the deposited data

How the results depend on the processing

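The count of 93 genes called for treatment became 199 with a pseudocount of 5, 144 with a mean of at least 1 cluster, 40 with a mean of at least 20, and 161 with the replicate block, and ran from 0 to 3714 as each library was left out. That highest count came without glucagon lower band replicate 2. The small library then stood alone for its group and was assumed to vary like the others. The log2 differences of Ppargc1a, Ppargc1b, Esrra and Nrf1 were then 2.05, −1.96, 0.81 and −1.25. In the lower band 7 became 12 with a pseudocount of 5, 3 with a mean of at least 20, 3 with covered bases and 0 with quality weights, and ran from 0 to 3720 as libraries were left out. In the upper band 4 became 8 with median-of-ratios scaling, 26 with a pseudocount of 5, 2 with a mean of at least 20, 0 with covered bases and 381 with quality weights (Ppargc1a adjusted p = 0.000335), and ran from 0 to 226; without glucagon lower band replicate 1 or 2 the upper band difference of Ppargc1a, 4.10, passed at adjusted p = 0.00301 and 0.00639. The counts of 0 for the difference between bands and between responses ran to 3083 and 1662, each without glucagon lower band replicate 2. The adjusted p of Ppargc1a ran from 0.000293 to 0.676 over all alternatives. Beyond the counts given, the replicate block changed no call among the 7 genes. Ppargc1a was not alone in passing the treatment test in an alternative. Ppargc1b, Esrra and Nrf1 also did in at least 1 limma fit, and Pprc1, Gabpa and Tfam in none. Each fit with a library left out has 1 library for that group. Signs turned with a library left out for Pprc1 (−0.14 to 0.13), Gabpa (−0.48 to 0.42) and Tfam (−0.80 to 0.46), none of which passed in any of those fits; the difference of Esrra enriched peaks turned to −0.25 with a log2 fold of at least 4. The intronic share of the members' clusters was 87.6% with introns placed before exons, and 76.3% to 79.3% as libraries were left out. Another 57 counts or shares stayed close to their value. The causes were not tested. The number of enriched peaks was 65 with a log2 fold of at least 2, 16 with at least 4 and 23 with −log10 p of at least 5.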
